A study of Mus musculus with 54 samples.

Results

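Fatty acid oxidation shortens fatty acids to acetyl-CoA, mostly in mitochondria and partly in peroxisomes. Long acyl chains enter the mitochondrion through the carnitine shuttle, in which CPT1 on the outer membrane and CPT2 on the inner one act in turn. Acyl-CoA dehydrogenases of graded chain length then open each beta oxidation cycle, and the trifunctional protein completes it for long chains. Adipocytes carry this machinery although their main business is storing fat, and nuclear receptors of the PPAR family are known to drive many of its genes.

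The genes described here are 9 enzymes of this pathway, chosen by name: Cpt1a and Cpt2 of the shuttle, the dehydrogenases Acadvl, Acadl, Acadm and Acads, the trifunctional protein genes Hadha and Hadhb, and Phyh, a peroxisomal hydroxylase. Phyh starts the alpha oxidation of branched chains rather than beta oxidation. All probes whose platform gene symbol was one of these were taken. These names, and those of the lists below, were chosen with earlier results of these data known. Counts set against shares of all genes therefore describe them and are no independent test. Of the 9 genes, 8 had a probe, each of them 1, among 16637 genes on the array, and no probe carried the symbol Hadhb, which is not analysed here. All 8 were bright enough to be among the 12792 genes tested, and 0 of their spots were saturated.

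Mouse 3T3-L1 preadipocytes, a fibroblast-like line able to become fat cells, were followed in 3 arms over 18 times, the last at 288 h, with 1 Phalanx Mouse OneArray per arm and time (54 arrays). The arms were an untreated control under normal differentiation, cells given 0.5% DMSO (a common solvent), and cells given 2 µM prieurianin (a plant limonoid). The labels do not say whether each time was a separate culture, when the differentiation stimulus was given in each arm, or whether the prieurianin arm also held DMSO. Neighbouring times of a window stand in for replicates, so every p-value measures only the spread between these arrays.

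A level is the log2 of quantile-normalised intensity plus 16, and probes of different genes are not compared by level. The windows are early (0.25 to 3 h between arms, 0 to 3 h over the course), middle (5 to 48 h) and late (96 to 288 h). Differences are log2 values ± the standard error of the limma fit, and a gene is called at an adjusted p under 0.05 over all 12792 genes. Between arms, higher and lower refer to matched times.

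The arrays carried the markers of the labelled cells. Summed intensity of the 9 adipocyte markers on the array (of 10 listed) ran from 2520 to 6540 at 0 to 3 h and from 108000 to 204000 in the late untreated and DMSO arrays. The 6 preadipocyte markers summed to between 127000 and 165000 at 0 to 3 h. On some arrays Adipoq and Cfd of the adipocyte markers and Dlk1 and Ly6a of the preadipocyte markers reached a level of 16. That is near the highest intensity of the arrays (65497), so the sums and the folds of these genes can understate differences. Of the markers listed for other cell types, mean levels were above the filter of 6.07 for 3 of 7 of brown fat (Cidea, Dio2, Cox7a1) and 2 of 5 of hepatocytes (Apoa1, Cyp7a1). The filter was also passed by 5 of 8 of muscle (Myog, Tnnt3, Mylpf, Myh1, Des) and 5 of 7 of macrophages (Cd68, Csf1r, Lyz2, Itgam, and Cd14 at 11.48). Among those under it were Ucp1 and Prdm16 of brown fat, Myod1 of muscle, Ptprc and Adgre1 of macrophages and Alb of hepatocytes. In prieurianin the adipocyte sum was 44200, 54300, 245000, 11100 and 11800 at 96, 144, 192, 240 and 288 h, so the array at 192 h stood apart from its arm, and results that rest on it are given with and without it. In RNA from whole cultures, fewer cells of a type and less RNA per cell cannot be told apart.

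**Figure D1:**
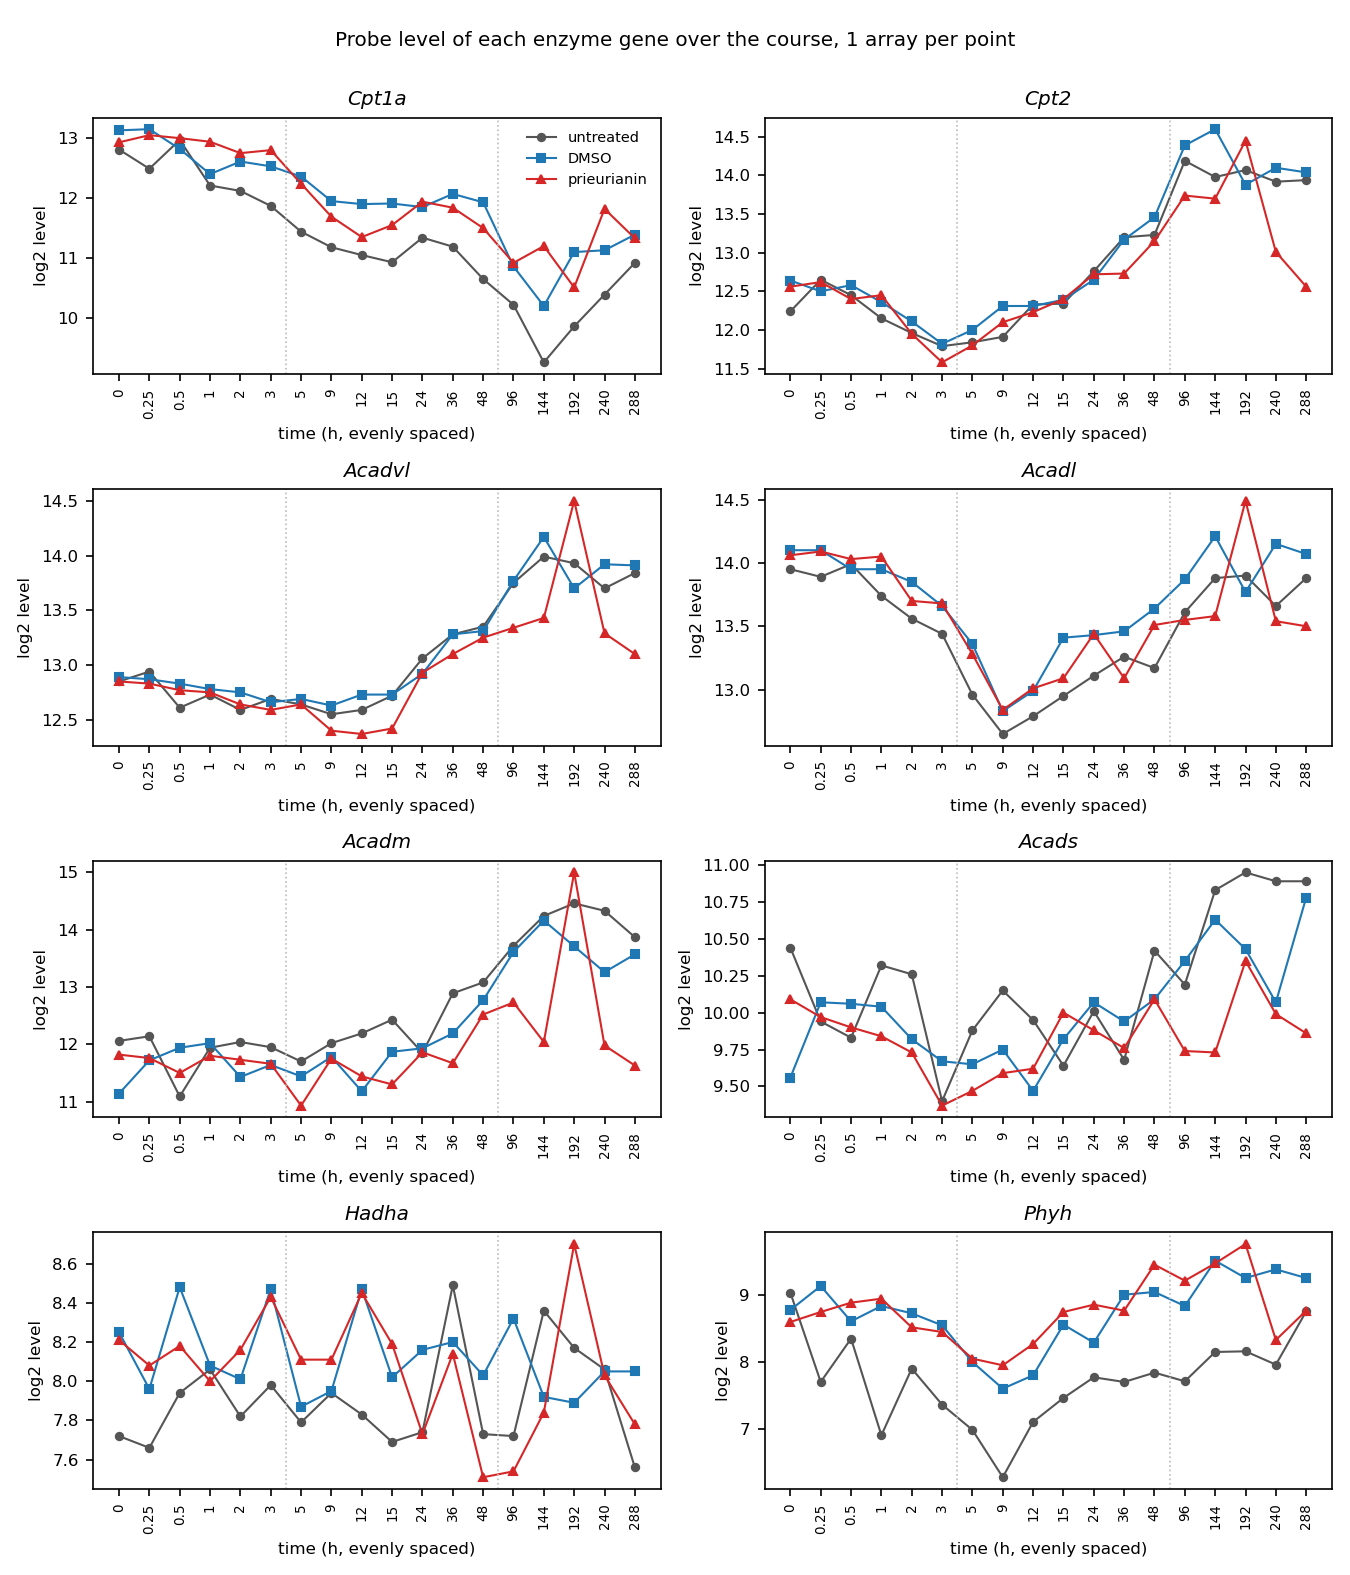
Level (log2 of quantile-normalised intensity + 16) of the 8 measured genes against time, evenly spaced, in the untreated, DMSO and prieurianin arms. Each point is 1 array, dotted lines part the windows, and the vertical scale differs between panels. Acadm, Cpt2 and Acadvl climb after 24 h in the untreated and DMSO arms, and in prieurianin Acadm and Cpt2 are back within their early ranges at 288 h. Cpt1a declines, Acadl dips to its low at 9 h, and the prieurianin array at 192 h lies above its late neighbours for every gene except Cpt1a.

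Over the course of normal differentiation the shuttle genes of the set went opposite ways: Cpt2 rose and Cpt1a fell. Cpt1b and Cpt1c were tested outside the set, and their course is not described here. The fall is therefore stated for Cpt1a only, and the course of CPT1 as a whole is not described. The dehydrogenases Acadm, Acadvl and Acads rose with Cpt2, while Acadl dipped and came back. Acadm rose 4.77-fold from early to late in untreated cells and Cpt2 3.51-fold, whereas Cpt1a fell to 0.206 of its early level. Of the 8 genes, 4 rose and 1 fell in untreated cells, where 34.3% of all tested genes were called in this comparison. In DMSO the count was likewise 4 up and 1 down (32.6% of all genes), and in prieurianin it was 3 up and 1 down (30.4%), or 2 up and 2 down without the array at 192 h (28.7%).

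**Figure D2:**
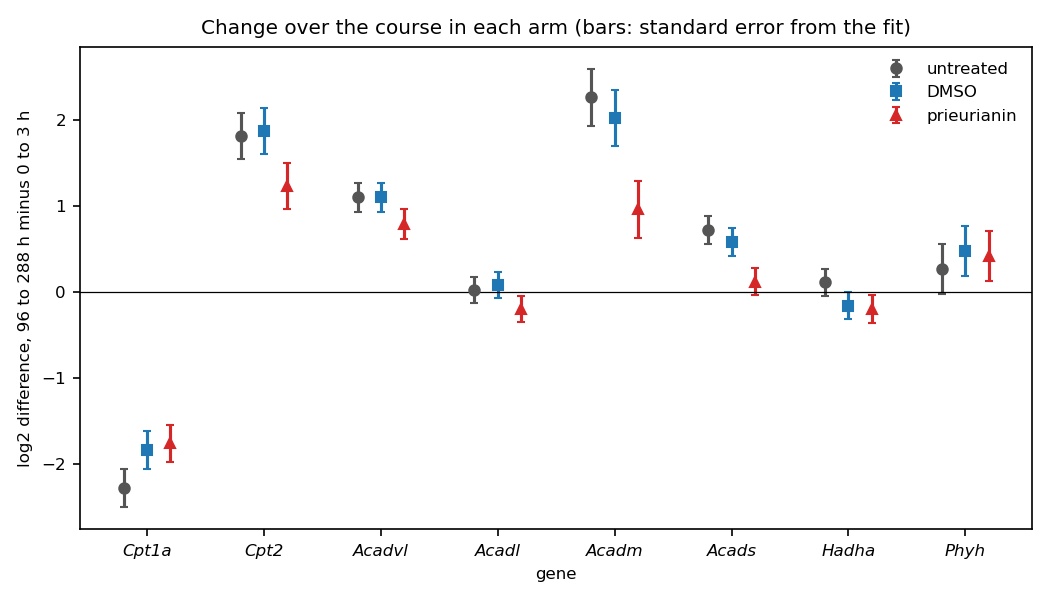
Late (96 to 288 h) minus early (0 to 3 h) difference of each gene on the log2 scale, by arm, with bars for the standard error of the limma fit. Cpt2, Acadvl and Acadm lie above 0 in each arm, Cpt1a lies between -2.28 and -1.76, and Acads is at 0.12 in the prieurianin arm against 0.72 in the untreated one.

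Cpt1a, the rate-limiting and malonyl-CoA-sensitive step of long-chain entry, started high. Its untreated level ran from 11.87 to 12.97 (median 12.35) at 0 to 3 h and from 10.65 to 11.44 (median 11.18) at 5 to 48 h. It was then 10.22, 9.26, 9.86, 10.39 and 10.92 at 96, 144, 192, 240 and 288 h. Every array from 5 h on lay below the whole early range, in each of the 3 arms, and in untreated and DMSO cells the lowest array was that at 144 h, with higher values after it. The late minus early difference was -2.28 ± 0.22 in untreated cells (limma adjusted p = 1.6e-11), -1.84 ± 0.22 in DMSO (3.6e-09) and -1.76 ± 0.22 in prieurianin (2.2e-08). Much of the fall was there by the middle window, with middle minus early differences of -1.30 ± 0.20, -0.78 ± 0.20 and -1.18 ± 0.20 in the same order.

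Cpt2, which hands the chain back to coenzyme A inside the mitochondrion, took the opposite course. Its untreated level had a median of 12.20 at 0 to 3 h (11.79 to 12.65) and of 12.34 at 5 to 48 h (11.84 to 13.23), then read 14.19, 13.98, 14.07, 13.92 and 13.94 at the late times. From 24 h on, each untreated and DMSO array lay above the early range of its arm. The rise was 1.81 ± 0.27 in untreated cells (adjusted p = 4.2e-07), 1.87 ± 0.27 in DMSO (2.8e-07) and 1.23 ± 0.27 in prieurianin (0.00032). With the prieurianin array at 192 h left out, the last value was 0.99 ± 0.27 (0.0038).

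Acadm, the medium-chain dehydrogenase, showed the widest change among the dehydrogenases. In untreated cells its level ran from 11.09 to 12.14 (median 11.99) at 0 to 3 h and from 11.70 to 13.08 (median 12.19) at 5 to 48 h, and was 13.72, 14.24, 14.46, 14.33 and 13.87 at the late times. All late untreated arrays lay above all earlier ones, and the early range was left for good at 36 h in untreated and DMSO cells. The rise was 2.26 ± 0.33 in untreated cells (adjusted p = 4.2e-07) and 2.02 ± 0.33 in DMSO (3.8e-06). In prieurianin it was 0.96 ± 0.33 (0.022), but 0.38 with an adjusted p of 0.28 without the array at 192 h.

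Acadvl, the very-long-chain enzyme of the inner membrane, moved less and with little scatter. Its untreated level lay between 12.59 and 12.94 at 0 to 3 h (median 12.71) and read 13.75, 13.99, 13.93, 13.70 and 13.84 late. Each arm left its early range for good at 24 h, prieurianin included. The rises were 1.10 ± 0.17 in untreated cells (adjusted p = 1.1e-06), 1.10 ± 0.17 in DMSO (1.3e-06) and 0.79 ± 0.17 in prieurianin (0.00029). Without the 192 h array the prieurianin value was 0.55 ± 0.15 (0.0046).

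Acads, the short-chain enzyme, rose late and by less. The untreated arrays read between 9.40 and 10.44 at 0 to 3 h (median 10.10) and 10.19, 10.83, 10.95, 10.89 and 10.89 at the late times, so that 4 of 5 late arrays lay above the early range and the array at 96 h within it. The rise was 0.72 ± 0.16 in untreated cells (adjusted p = 0.00049) and 0.58 ± 0.16 in DMSO (0.0049). In prieurianin it was 0.12 ± 0.16 (0.63). With the values as deposited and no scaling between arrays, the untreated and DMSO calls were lost (0.55, adjusted p = 0.07, and 0.47, 0.14).

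Acadl, the long-chain dehydrogenase, dipped and recovered. Its level ran from 13.44 to 13.99 at 0 to 3 h in untreated cells (median 13.82), fell to 12.65 at 9 h and was back at 13.61, 13.88, 13.90, 13.66 and 13.88 late. The lowest array was that at 9 h in every arm, at 12.83 in DMSO and 12.84 in prieurianin. Between the early and the middle window Acadl fell by 0.78 ± 0.14 in untreated cells (adjusted p = 6.5e-05), by 0.63 ± 0.14 in DMSO (0.00084) and by 0.76 ± 0.14 in prieurianin (0.0001). It and Cpt1a were the 2 of 8 genes called in this comparison in each arm, where 16.3%, 17.4% and 14.8% of all genes were called in untreated, DMSO and prieurianin cells. The late minus early difference was 0.02 ± 0.15, 0.08 ± 0.15 and -0.20 ± 0.15, none past the threshold. The last was -0.39 ± 0.14 (0.027) without the prieurianin array at 192 h, a fall that passed the threshold.

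Hadha and Phyh did not pass the test between windows. Hadha, the alpha subunit of the trifunctional protein, ran from 7.51 to 8.70 over all arrays, with late minus early differences of 0.11 ± 0.16, -0.16 ± 0.16 and -0.20 ± 0.16 in untreated, DMSO and prieurianin cells. Phyh, the phytanoyl-CoA hydroxylase, had differences of 0.27 ± 0.29, 0.48 ± 0.29 and 0.42 ± 0.29. Within each arm its lowest level was at 9 h: 6.27 in untreated cells, 7.60 in DMSO and 7.95 in prieurianin. Both probes were dim, with normalised intensities from 166 to 399 for Hadha and down to 61 for Phyh. Changes of these genes can therefore be understated or missed.

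The promoters of the 4 genes that rose together and of Cpt1a, which fell, are shown as the 250 bases before the RefSeq start of each gene (assembly GRCm38.p6, read 5′ to 3′ on the gene's strand). All 9 genes had an entry. Capitals mark matches on either strand to AGGTCA, the core hexamer bound by nuclear receptors, to GGGCGG, the GC box, and to CCAAT. The windows are chr3:153944644-153944893 on the minus strand for Acadm, chr4:107923590-107923839 (minus) for Cpt2, chr11:70015429-70015678 (minus) for Acadvl, chr5:115119347-115119596 (minus) for Acads and chr19:3323051-3323300 on the plus strand for Cpt1a.
Acadm: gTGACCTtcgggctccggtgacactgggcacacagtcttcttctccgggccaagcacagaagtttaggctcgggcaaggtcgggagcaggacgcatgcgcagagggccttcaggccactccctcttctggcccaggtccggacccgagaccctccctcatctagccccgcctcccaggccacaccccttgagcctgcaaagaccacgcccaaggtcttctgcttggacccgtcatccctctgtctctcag
Cpt2: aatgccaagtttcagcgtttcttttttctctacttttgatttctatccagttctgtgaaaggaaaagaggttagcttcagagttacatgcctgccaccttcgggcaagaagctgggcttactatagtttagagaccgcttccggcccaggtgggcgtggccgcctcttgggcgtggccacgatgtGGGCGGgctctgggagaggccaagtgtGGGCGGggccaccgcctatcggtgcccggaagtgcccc
Acadvl: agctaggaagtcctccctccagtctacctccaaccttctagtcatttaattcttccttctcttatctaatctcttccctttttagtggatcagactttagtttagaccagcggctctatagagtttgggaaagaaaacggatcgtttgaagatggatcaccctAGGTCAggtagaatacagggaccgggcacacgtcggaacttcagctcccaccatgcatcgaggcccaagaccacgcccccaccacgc
Acads: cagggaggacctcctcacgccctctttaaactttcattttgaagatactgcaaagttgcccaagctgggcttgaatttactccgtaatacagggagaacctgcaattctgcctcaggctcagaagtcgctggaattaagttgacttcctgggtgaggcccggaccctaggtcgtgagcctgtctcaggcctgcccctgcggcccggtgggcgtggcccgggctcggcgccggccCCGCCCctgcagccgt
Cpt1a: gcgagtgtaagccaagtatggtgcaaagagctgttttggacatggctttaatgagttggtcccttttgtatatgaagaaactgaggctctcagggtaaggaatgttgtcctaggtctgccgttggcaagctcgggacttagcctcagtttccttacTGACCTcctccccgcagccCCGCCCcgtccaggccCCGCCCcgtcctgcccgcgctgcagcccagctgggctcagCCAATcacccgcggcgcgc

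AGGTCA was found before 3 of the 9 genes: Acadm, Acadvl and Cpt1a, with the match starting at base -249, -87 and -94 from the start. It occurred in 14% of 32851 promoter windows of the same length. The GC box GGGCGG was found before 6 (Acads, Acadl, Cpt1a, Cpt2, Hadha and Hadhb) against 32.7% of all windows, and CCAAT before Cpt1a only, against 33.8%. The direct repeat of AGGTCA with 1 base between (DR1, 0.0335% of windows), the extended hexamer TCAAGGTCA (0.387%) and the E box CACGTG (6.02%) matched none of the 9 windows. The first 2 contain AGGTCA and so overlap it. A match is a run of letters, not a binding site. Hadha and Hadhb lie head to head, with starts 272 bases apart, so their windows share most of their sequence.

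Prieurianin was compared with DMSO at matched times. In the late window Acadm was 1.98-fold lower, Cpt2 1.63-fold lower, Acads 1.43-fold lower and Acadvl 1.29-fold lower in prieurianin cells. These 4 of 8 genes were called lower and none higher, where 16.7% of all genes were called and 9.36% were called lower. Of all genes called here, 43.9% were higher, a share of 31.1% with values as deposited. The median over the 8 genes was -0.32, against 0.02 over all tested genes. In the early window 0 of 8 were called (0% of all genes by limma, 300 of which had an unadjusted p under 0.05, none of them a member), and in the middle window 0 of 8 (11.1% of all genes; 0 members at an unadjusted p under 0.05).

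**Figure D3:**
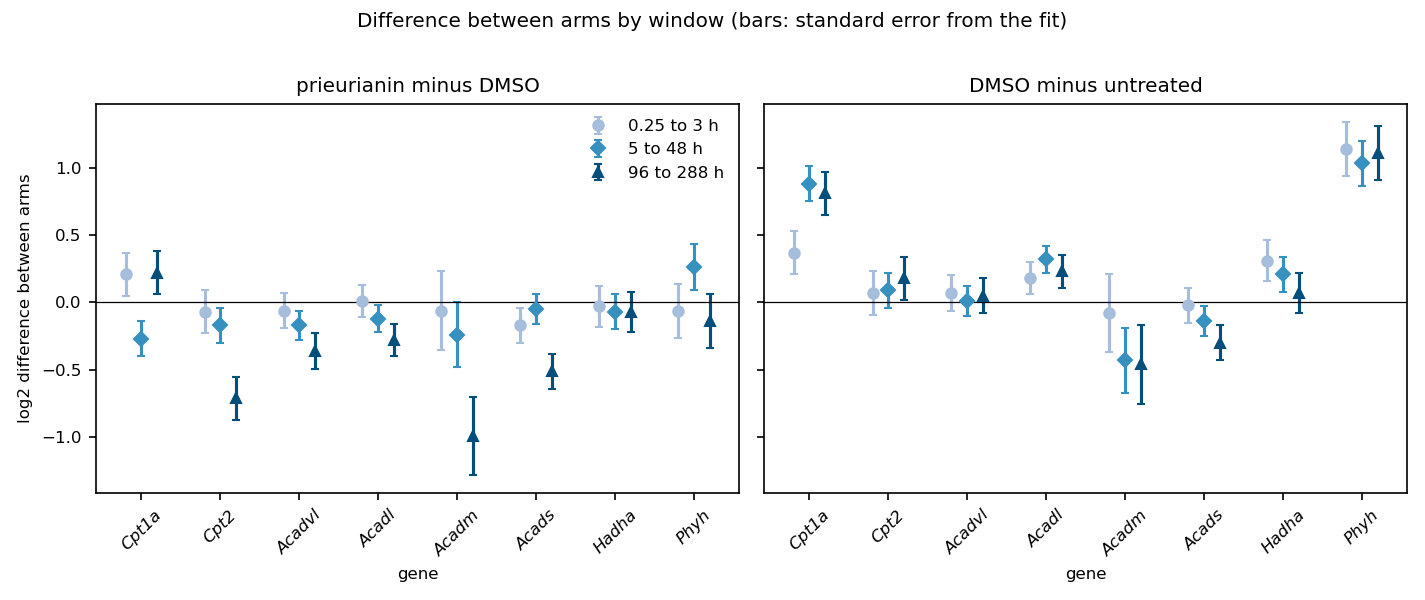
Difference between arms in each window on the log2 scale, prieurianin minus DMSO on the left and DMSO minus untreated on the right, with bars for the standard error of the limma fit. On the left Acadm, Cpt2, Acads and Acadvl are lowest in the late window; on the right Phyh lies above 1 in every window and Cpt1a at 0.88 and 0.81 in the later ones.

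Acadm in the late DMSO arrays read 13.61, 14.16, 13.71, 13.26 and 13.57 at 96, 144, 192, 240 and 288 h, and in the prieurianin arrays 12.73, 12.04, 15.00, 11.98 and 11.63. In 4 of 5 times the prieurianin array lay below every late DMSO and untreated array, and at 192 h it was above all of them. The difference was -0.99 ± 0.29 (limma adjusted p = 0.016), lower at 4 of 5 times. Without the prieurianin array at 192 h it was -1.52 ± 0.20 (1.1e-06), a 2.87-fold lower level. The call was lost without 144 h (-0.71, adjusted p = 0.13), 240 h (-0.92, 0.072) or 288 h (-0.75, 0.16), and without the time term (0.093).

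Cpt2 read 14.39, 14.60, 13.88, 14.10 and 14.04 late in DMSO and 13.74, 13.70, 14.45, 13.01 and 12.56 in prieurianin. The prieurianin arrays at 240 and 288 h were the lowest, and only the one at 192 h reached the DMSO range. The difference was -0.71 ± 0.16 (adjusted p = 0.0023), and -0.98 ± 0.12 (3.2e-07) without the array at 192 h. It held without any single time, but not under median centring of the arrays (-0.75, adjusted p = 0.058) or without the time term (0.15).

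Acads read 10.35, 10.63, 10.43, 10.07 and 10.78 late in DMSO and 9.74, 9.73, 10.35, 9.99 and 9.86 in prieurianin. It was lower in prieurianin at 5 of 5 times, by 0.07 at 192 and 240 h and by 0.61 to 0.92 at the others. The difference was -0.51 ± 0.13 (adjusted p = 0.0074), and -0.60 ± 0.14 (0.0017) without the array at 192 h. The call was lost without 144 h (-0.42, adjusted p = 0.054) or 288 h (-0.41, 0.092), and without the time term (0.06).

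Acadvl read 13.77, 14.17, 13.70, 13.92 and 13.91 late in DMSO and 13.34, 13.43, 14.50, 13.29 and 13.10 in prieurianin. Apart from 192 h, each prieurianin array was below all late DMSO arrays. The difference was -0.36 ± 0.13 (adjusted p = 0.044), a call lost under most alternatives, among them median centring (-0.42, adjusted p = 0.30) and each single time left out other than 0 and 192 h. Without the prieurianin array at 192 h it was -0.62 ± 0.08 (2.2e-07).

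Acadl read 13.87, 14.21, 13.77, 14.15 and 14.07 late in DMSO and 13.55, 13.58, 14.49, 13.54 and 13.50 in prieurianin, again with 4 of 5 prieurianin arrays below all DMSO arrays. The difference was -0.28 ± 0.12 (adjusted p = 0.094), and -0.49 ± 0.09 (6.6e-05) without the array at 192 h. Without that array 5 of 8 genes were called lower and none higher, where 26.7% of all genes were called.

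Cpt1a did not follow the dehydrogenases. Late in DMSO it read 10.86, 10.20, 11.10, 11.13 and 11.39, and in prieurianin 10.92, 11.20, 10.51, 11.82 and 11.33. The arms overlapped, and the prieurianin array was higher at 3 of 5 times, with a difference of 0.22 ± 0.16 (adjusted p = 0.38). At 192 h, where the other shuttle gene and the dehydrogenases other than Acads were higher in prieurianin, Cpt1a was lower by 0.60. Hadha (-0.07 ± 0.15) and Phyh (-0.14 ± 0.20) were not called. Leaving out the prieurianin array at 192 h, Cpt1a was at 0.37 ± 0.16 (0.094), Hadha at -0.24 ± 0.15 (0.26) and Phyh at -0.30 ± 0.21 (0.32), again with no call.

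**Figure D4:**
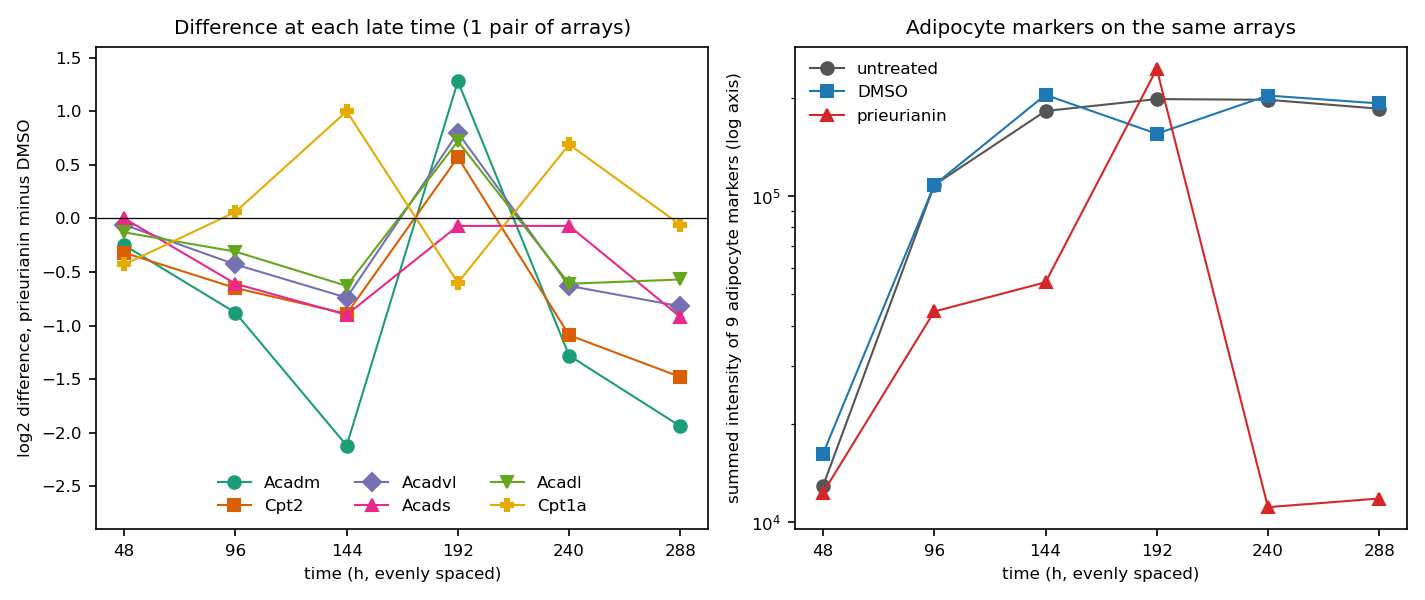
Left, prieurianin minus DMSO difference on the log2 scale at each time from 48 to 288 h for 6 genes, 1 pair of arrays per point. Right, summed intensity of the 9 adipocyte markers on the arrays of the 3 arms on a log axis. At 192 h Acadm is 1.28 above DMSO and the marker sum of the prieurianin array is 245000, and at 144 h they are at -2.12 and 54300. At 240 h they are at -1.28 and 11100.

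The prieurianin adipocyte marker sum lay below that of DMSO at every late time except 192 h. At 144 and 240 h the sums were 54300 and 11100 in prieurianin and 204000 and 203000 in DMSO. Between these times the prieurianin minus DMSO difference of Acadm went from -2.12 to -1.28 and that of Acads from -0.90 to -0.07. Acadm read 12.04 and 11.98 in prieurianin and 14.16 and 13.26 in DMSO. Acads read 9.73 and 9.99 in prieurianin and 10.63 and 10.07 in DMSO. The differences of Acadvl (-0.74 and -0.63) and Acadl (-0.63 and -0.61) changed little, and that of Cpt2 went from -0.89 to -1.09. Adipocyte markers had 7 of 8 tested genes lower and 0 higher in late prieurianin cells, with a median of -1.76, and Adipoq, the fat cell hormone adiponectin, was 6.60-fold lower (-2.72 ± 0.51, adjusted p = 0.00037). Plin1, the lipid droplet coat, was at -2.03 ± 0.52 (0.0069) and Fabp4, a fatty acid carrier, at -0.72 ± 0.25 (0.043). At 240 and 288 h the prieurianin sums were 11100 and 11800 against 203000 and 192000 in DMSO, and at 192 h 245000 against 155000. Preadipocyte markers summed to between 58300 and 118000 in late prieurianin arrays and between 66800 and 123000 in late DMSO arrays. Muscle markers (8 listed, Myod1, Myf5 and Ckm under the filter) summed to between 1920 and 3650 (median 2510) in late prieurianin arrays. In late DMSO arrays they summed to between 1610 and 2220 (median 1740). Brown fat markers (7 listed, Ucp1, Prdm16, Cox8b and Elovl3 under the filter) had a lower median in late prieurianin arrays, 609 against 904 in DMSO. Their ranges were 530 to 3860 and 497 to 1110. Of the tested markers 2 of 5 of muscle were called higher and 0 lower, 1 of 6 of preadipocytes higher and 2 lower, and 0 of 3 of brown fat, 0 of 5 of macrophages and 0 of 2 of hepatocytes either way by limma. The part of these markers in the enzyme differences was not tested.

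Whether the late difference exceeded that of earlier windows was tested on the arm differences themselves. With all arrays no gene was called for prieurianin minus DMSO, late against middle (6.74% of all genes called) or late against early (2.09%). Acadm gave -0.75 ± 0.37 (adjusted p = 0.23) and -0.93 ± 0.40 (0.25) and Cpt2 -0.54 ± 0.21 (0.10) and -0.63 ± 0.22 (0.14). Without the prieurianin array at 192 h, the late against middle difference was called lower for Acadm (-1.28 ± 0.26, 0.0011), Cpt2 (-0.82 ± 0.15, 0.00058), Acadvl (-0.45 ± 0.10, 0.0018), Acads (-0.54 ± 0.18, 0.035) and Acadl (-0.37 ± 0.11, 0.021). It was called higher for Cpt1a (0.64 ± 0.20, 0.032), against 16% of all genes called. Late against early, with that array left out, 4 genes were called lower (12.4% of all genes): Acadm (-1.46 ± 0.28, 0.00045), Cpt2 (-0.91 ± 0.17, 0.0003), Acadvl (-0.55 ± 0.10, 0.00033) and Acadl (-0.50 ± 0.12, 0.0041). Acads (-0.42 ± 0.19, 0.16) and Cpt1a (0.16 ± 0.22, 0.70) were not called there.

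The change over the course was also compared between arms. No gene's late minus early change was called different between prieurianin and DMSO (0.336% of all genes called) or between prieurianin and untreated cells (0.594%). For Acadm these differences of changes were -1.05 ± 0.47 (adjusted p = 0.46) and -1.29 ± 0.47 (0.23). Without the array at 192 h they were -1.63 ± 0.36 (0.0033) and -1.87 ± 0.36 (0.00055), and Acadm was the 1 gene of the 8 called in each, where 4.07% and 4.91% of all genes were called.

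DMSO against untreated cells gave the background of the solvent arm, and here Phyh and Cpt1a differed. Phyh was 2.20-fold higher in DMSO in the early window, 2.04-fold in the middle and 2.15-fold in the late one. Its late level was 7.71, 8.15, 8.16, 7.96 and 8.76 in untreated cells and 8.84, 9.52, 9.26, 9.39 and 9.26 in DMSO, with no overlap. At 0 h the order was the other way, 9.04 in untreated and 8.78 in DMSO cells, and after 0 h no untreated array exceeded 8.76. The first gaps were uneven, at 1.44, 0.26 and 1.95 at 0.25, 0.5 and 1 h. The untreated array at 1 h had the highest array median (313).

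The Phyh differences were 1.14 ± 0.20 (adjusted p = 0.0011), 1.03 ± 0.17 (4.1e-05) and 1.11 ± 0.20 (0.0016), higher at every time tested, and were called under every alternative run. Phyh was the 1 gene of 8 called in the early window, where 3.54% of all genes were called. The prieurianin arm shared the shift, with Phyh 1.07 ± 0.20 (0.0012), 1.29 ± 0.17 (1.1e-06) and 0.97 ± 0.20 (0.00068) above untreated cells in the 3 windows, the same untreated arrays serving both comparisons. Late prieurianin levels of Phyh were 9.22, 9.48, 9.77, 8.33 and 8.77.

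Cpt1a was 0.88 ± 0.13 higher in DMSO than in untreated cells at 5 to 48 h (adjusted p = 1.5e-05) and 0.81 ± 0.16 at 96 to 288 h (0.0032). At 5 to 48 h the untreated arrays ran from 10.65 to 11.44 (median 11.18) and the DMSO arrays from 11.85 to 12.36 (median 11.93), without overlap, and late the arms overlapped. The late call was lost under median centring (0.81, adjusted p = 0.087), with values as deposited (0.68, 0.082) and without the time term (0.066). At 0.25 to 3 h the difference was 0.37 ± 0.16 (0.25).

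No member's DMSO minus untreated difference differed between windows (0% of all genes called by limma, with 372 and 1830 genes but 0 members at an unadjusted p under 0.05 for late against early and against middle). At 5 to 48 h 3 of 8 genes were called higher in DMSO and none lower (20.3% of all genes called), and late 2 of 8 (3.65%). The third at 5 to 48 h was Acadl (0.32 ± 0.10, adjusted p = 0.02), higher at 7 of 7 times. It stood at 0.04 (0.88) under median centring, a scaling that moved the median of all genes in this comparison to -0.18. With all arrays, Acadm, Acadvl, Acads and Cpt2 were not called between DMSO and untreated cells in any window, with late differences of -0.46 ± 0.29, 0.05 ± 0.13, -0.30 ± 0.13 and 0.18 ± 0.16. With the prieurianin array at 192 h, which enters the shared spread, left out, Acadm was called lower in DMSO at 5 to 48 h (-0.43 ± 0.16, adjusted p = 0.048, against 0.22 with all arrays).

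Against untreated cells, the late prieurianin arm had 3 of 8 genes lower and 2 higher (22% of all genes called). Acadm was -1.45 ± 0.29 (adjusted p = 0.00039), Acads -0.81 ± 0.13 (4.5e-05) and Cpt2 -0.53 ± 0.16 (0.015), the last lost without 240 h (-0.43) or 288 h (-0.31). Cpt1a was 2.03-fold higher (1.02 ± 0.16, 2.4e-05), at 5 of 5 times, and Phyh was the other higher gene. Without the prieurianin array at 192 h Acadm was -1.98 ± 0.20 (8.2e-09), and Acadvl (-0.56 ± 0.08) and Acadl (-0.26 ± 0.09) were called as well.

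At 5 to 48 h 3 of 8 genes were called against untreated cells (28.5% of all genes): Phyh and Cpt1a (0.61 ± 0.13, adjusted p = 0.00078) higher and Acadm lower (-0.67 ± 0.24, 0.036). The Cpt1a call was lost under median centring (0.49), and the Acadm call without the time term or without any of 5, 12, 15, 36 and 48 h. At 0.25 to 3 h Phyh and Cpt1a were called higher (2 of 8, against 5.93% of all genes). The early Cpt1a value of 0.57 ± 0.16 (0.025) was lost under both other scalings and without 0.25, 1, 2 or 3 h. The late and middle differences from untreated cells differed for 1 of 8 genes, Acads (-0.62 ± 0.17, 0.03; 5.78% of all genes called), a call lost under both other scalings and without 15, 144, 240 or 288 h. Between late and early 0 of 8 differed (3.53% of all genes; 3 members at an unadjusted p under 0.05 by limma).

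The prieurianin array at 192 h decided these counts. Leaving it out, 5 of 8 genes had a late difference from untreated cells below the middle one (14.2% of all genes called). These were Acadm (-1.31 ± 0.26, adjusted p = 0.00071), Cpt2 (-0.73 ± 0.15, 0.0016), Acadvl (-0.41 ± 0.10, 0.0036), Acads (-0.71 ± 0.18, 0.0068) and Acadl (-0.45 ± 0.11, 0.0048). Late against early the same 5 were called lower (14.4% of all genes), from -1.84 ± 0.28 for Acadm (2e-05) to -0.44 ± 0.12 for Acadl (0.0094).

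Other genes of mitochondrial oxidation were taken from a list of 21, of which 20 were tested. Late in prieurianin 6 of these were lower than in DMSO and 0 higher, with a median of -0.27, where 16.7% of all tested genes were called and 9.36% were lower. Acad10 (-0.86 ± 0.22, adjusted p = 0.0069), Acad12 (-0.73 ± 0.16, 0.002) and Acadsb (-0.58 ± 0.13, 0.0029), all of the acyl-CoA dehydrogenase family, led, and Acaa2, the mitochondrial thiolase, was at -0.42 ± 0.13 (0.027). Slc25a20, the carnitine-acylcarnitine translocase that lies between CPT1 and CPT2, was at -0.07 ± 0.16 (0.84). The count was 14 without the prieurianin array at 192 h and 2 without 240 h, without 288 h or under median centring. From early to late, 13 rose and 1 fell in untreated cells, 11 rose in DMSO and 3 rose and 1 fell in prieurianin, where 34.3%, 32.6% and 30.4% of all tested genes were called. The same shares of all genes stand behind the counts of the other lists. The untreated count was 8 up and 1 down under median centring and 4 up and 1 down with values as deposited.

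Of 22 listed genes of peroxisomal oxidation other than Phyh, 18 were tested, and 6 were lower and 0 higher in late prieurianin cells than in DMSO, with a median of -0.10. They included Acox2, the branched-chain acyl-CoA oxidase (-1.64 ± 0.35, adjusted p = 0.0014), Abcd2, a peroxisomal importer of very long chains (-1.24 ± 0.23, 0.00042), and Pex11a, a peroxisome division factor (-1.09 ± 0.18, 9.2e-05). The count was 3 without 240 h, without 288 h or without the time term. Without the prieurianin array at 192 h Acox2 was at -2.17 ± 0.30, Abcd2 at -1.25 ± 0.26 and Pex11a at -1.46 ± 0.10, all still called lower. Cat, Scp2, Acaa1a, Acaa1b, Eci2 and Pex7 were called lower there as well, and no gene of the list higher. From early to late 11 rose and 0 fell in untreated cells, 11 rose and 1 fell in DMSO, and 9 rose in prieurianin, the last 4 without the array at 192 h. Acox2 rose 9.47-fold in untreated cells (3.24 ± 0.47, 3.2e-07) and Pex11a 5.42-fold (2.44 ± 0.28, 2.2e-09).

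Acyl-CoA synthetases, which activate fatty acids before oxidation or storage, went both ways. Late in prieurianin 2 of 8 tested (9 listed) were lower than in DMSO, Acsm3 (-2.07 ± 0.40, adjusted p = 0.00055) and Acsl1 (-1.60 ± 0.41, 0.0068), and 1 was higher, Acsl3 (0.58 ± 0.12, 0.0017). Without the prieurianin array at 192 h Acsm3 was at -2.69 ± 0.34, Acsl1 at -2.42 ± 0.26 and Acsl3 at 0.56 ± 0.14, all still called. Over the untreated course Acsl1 rose (4.09 ± 0.39, 1.8e-11) and Acsl3 fell by 1.26 ± 0.17 (6.3e-08).

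Among regulators of oxidation 16 of 20 listed genes were tested, with 4 lower and 2 higher in late prieurianin cells than in DMSO. Pparg, the receptor that directs fat cell formation, was 2.23-fold lower (-1.16 ± 0.21, adjusted p = 0.00023). Its partner Rxra (0.90 ± 0.22, 0.0051) and Pdk4, a kinase that inhibits pyruvate dehydrogenase (0.73 ± 0.19, 0.0084), were higher. Without 288 h 1 was higher and 1 lower, and without 240 h 2 were higher and 1 lower. Ppara, the receptor best known for oxidation genes in liver, was at -0.04 ± 0.24 (0.94), and Esrra, an orphan receptor of mitochondrial genes, at -0.23 ± 0.12 (0.20). Without the prieurianin array at 192 h Esrra was called lower (-0.34 ± 0.12, limma adjusted p = 0.042) and Ppara was not called (-0.16 ± 0.26, 0.70). Pparg was then at -1.48 ± 0.18 (1.6e-07), Rxra at 0.83 ± 0.24 (0.0099) and Pdk4 at 0.73 ± 0.21 (0.0097). Over the untreated course 8 regulators rose and 0 fell, Pparg by 2.91 ± 0.29 (7.7e-11) and Esrra by 0.71 ± 0.12 (5.2e-06), with Ppara at 0.15 ± 0.23 (0.65).

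The measured genes did not share 1 profile. Over the 54 arrays the level of Acadvl correlated with Cpt2 at a Pearson r of 0.95, Acadm with Acadvl at 0.90 and Acadm with Cpt2 at 0.87, whereas Acadm with Cpt1a was at -0.77 and Hadha with Acadm at 0. These points share the course and the arrays, so the values describe the pattern only. Against the mean standardised profile of the 8 genes, the most alike tested genes outside the list were Mccc1 (r of 0.901), Acadsb (0.899), Cat, the peroxisomal catalase (0.896), Tns2 (0.877) and Enpp2 (0.871), then Hint2, Pex11a, Etfa, Emc9 and Pex6 (0.87 to 0.858). Within that profile Cpt1a stood at -0.282 and Hadha at 0.263. Etfa, the electron acceptor of the acyl-CoA dehydrogenases, rose 1.49-fold over the untreated course (0.57 ± 0.13, adjusted p = 0.00062).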

How the data were processed

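Total RNA was amplified, coupled to Cy5 and hybridised to single-colour arrays, per the labels' protocols. The deposited values are probe intensities on a linear scale, judged from the values (-83 to 65497, 0.466% below 0). Background and scaling steps are not given in the sources used here. Array medians ran from 88 to 313, with 93 to 176 saturated probes per array. The number of arrays limits the precision.

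Values were quantile normalised, floored at 0 and taken as log2(value + 16), so folds understate changes of dim genes. Probes were named by the platform annotation (21020 of 29922 with 1 symbol, 8902 with none), updated through RefSeq. A gene was its brightest probe, and genes with a mean above 6.07 (the first quartile over probes with a gene) were tested. limma 3.58.1 (R 4.3.3) was fitted across all genes: between arms with time as a factor over 51 arrays without 0 h (28 residual df), and over the course with a mean per arm and window over 54 arrays (45 residual df). The spread is shared by all arms and windows. Adjusted p-values are Benjamini-Hochberg values. The fits were tested on simulated data.

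Promoters were read from RefSeq (GRCm38.p6) with Python 3.11.15. The alternatives were other scalings, pseudocounts, filters and probe rules, saturated spots left out, time left out or as a random block, only the arms compared, and each time or the prieurianin array at 192 h left out. The members and lists were chosen with earlier results of these data known. Named genes outside the members were Pparg, Ppara, Ppargc1a, Esrra, Acaa2, Slc25a20, Adipoq, Fabp4 and Plin1, the 3 genes of each pathway list with the smallest p for late prieurianin minus DMSO, and the 10 with the highest Pearson r with the members' mean profile. Ppargc1a was under the filter and was not analysed here.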

Additional observations from a re-analysis of the deposited data

Results flagged for a closer look

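In 5 of 72 sets of 1 gene, arm and window, 1 array lay far from the rest of its set, where chance gives about 1 in 20. The prieurianin array at 192 h did so for Acadl (14.49, the next highest late array of the arm being 13.58) and for Acadvl (14.50, next 13.43). That array also had the highest adipocyte marker sum (245000), and the part of those markers was not tested. Of the untreated arrays, Acads was low at 96 h (10.19, next 10.83), Acadm low at 0.5 h (11.09, next 11.94) and Hadha high at 36 h (8.49, next 7.94).

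The prieurianin minus untreated difference of Acads differed between windows by limma's test of the difference itself, late minus middle -0.62 ± 0.17 (adjusted p = 0.03). Without the prieurianin array at 192 h it was -0.71 ± 0.18 (0.0068).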

How the results depend on the processing

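Of 5112 recomputed values of the 8 genes, 4865 kept their direction and side of the threshold, 77 lost the call, 58 gained it, 112 changed sign with no call before or after, and 0 reversed. Counts of called genes that moved by over 1.5 times, and some that moved by less, were these. Prieurianin minus DMSO, late, had 4 genes called with all settings as reported, 2 under median centring, 0 without the time term (all 4 directions kept) and 2 with only those arms fitted. Leaving out single times it ran from 1 (144 or 288 h) to 5 (192 h). In the middle window it was 0, and 1 without the prieurianin array at 192 h, as also without that time (0 to 1). Prieurianin minus untreated, early, went from 2 to 1 under median centring, with values as deposited, without the time term and with only those arms (1 to 2 without single times). In the middle window it went from 3 to 5 without the prieurianin array at 192 h (2 to 5 without single times), and late from 5 to between 4 and 6 without single times, with 7 without the prieurianin array at 192 h. DMSO minus untreated, late, went from 2 to 1 under median centring, with values as deposited and without the time term (2 to 3 without single times). Its middle count of 3 ran from 2 to 3 without single times and was 4 without the prieurianin array at 192 h. The totals over the course (5, 5 and 4) and the early totals of DMSO minus untreated (1) and prieurianin minus DMSO (0) were the same without each single time, although the prieurianin course lost Acadm and gained Acadl without 192 h. The causes of these moves were not tested. Values as deposited moved the median of all genes to -0.16 late minus early in untreated cells and to -0.17 in late prieurianin minus untreated. The time term of the fit already pairs the arms by matched time. Beyond it, no paired analysis was possible because the labels give no replicate numbers. With time as a random block prieurianin minus DMSO, late, had 3 genes called.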
